A study of Homo sapiens with 40 samples.

Results

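The RNA recovered with eIF4A2 was compared directly with the RNA recovered with its paralogue eIF4A1, library against library and without dividing by total RNA. The comparison used 6 of the 40 libraries of the series, 3 of the eIF4A2 IP and 3 of the eIF4A1 IP, chosen by their titles. Both IPs were native RNA immunoprecipitations of the endogenous proteins from HEK293 cells, an established human embryonic kidney line, with no siRNA and no drug. They used 1 antibody each, in different amounts, a short incubation and a stranded library of polyadenylated RNA. RNA from the same lysates (RIP total RNA, 3 libraries) and a DDX6 IP (3 libraries) were part of the same fit. They shared in the filter on low counts, the scaling and the estimate of spread. They also served to place each gene against total RNA. On the 6 compared libraries alone, 16843 genes passed the filter. IgG libraries are not analysed here, so RNA held by beads alone was not measured. Nothing in the sources says that the replicates came from separate cultures, so p-values measure the spread between these libraries.

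eIF4A1 and eIF4A2 are DEAD-box RNA helicases of nearly the same sequence. eIF4A1 is the helicase of eIF4F, the complex that binds the cap of an mRNA and opens its leader so that the small ribosomal subunit can scan. eIF4A2 has been linked to the Ccr4-Not complex, which removes poly(A) tails and lowers translation, and purine-rich RNA is a known binding sequence of eIF4A in the presence of rocaglates, a class of plant-derived inhibitors. A library of an IP is a composition: less RNA bound and more of everything else bound give the same value, and cannot be told apart.

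The eIF4A1 IP libraries held 40037716, 46018900 and 38266593 counts and the eIF4A2 IP libraries 26883978, 31147883 and 39021000. The libraries were those of HEK293 cells as far as markers show: all 7 of the genes listed for the line passed the filter on low counts, whereas 4 of 11 markers of other cell types did, and that list summed to between 11.8 and 21.2 CPM (counts scaled to a common library size) in the 6 libraries, most of it COL1A1. Over all genes, the first principal component of the 6 libraries held 42.9% of the variance and had eIF4A1 IP replicate 2 and eIF4A2 IP replicate 3 at its ends, so results that rest on either library are given without it. The HEK293 neurofilament gene NEFM shows how eIF4A2 IP replicate 3 stood apart, with 197 CPM against 1211 and 920 CPM in the other eIF4A2 IP libraries and 557 to 1065 CPM in the eIF4A1 IP.

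Of 17474 genes tested (edgeR quasi-likelihood test, FDR below 0.05), 170 were higher in the eIF4A2 IP (0.973%) and 15 lower (0.0858%). Among the higher were 23 rows named for small nucleolar and related RNAs, some genes of splicing and other nuclear RNA-binding proteins, and the mRNA of eIF4A2 itself. By annotation the higher rows also held 33 clone-named rows that could not be placed, 9 lncRNAs, 4 pseudogenes, 3 miRNAs and 5 others. Protein-coding genes were 93 of the 170. Lower were 2 subunits of the respiratory chain, COX6B1 and NDUFA7, and 13 other genes of mixed function. Replicate numbers were taken to pair the libraries. A fit with the number as a block called 1245 genes higher (7.12%) and 1521 lower (8.7%), together 15.8% of the genes tested. The lower set held 38 large subunit and 28 small subunit ribosomal protein genes and 45 respiratory chain genes. All 185 genes called without the block were called with it and had no overlap between the groups. Genes without overlap, called or not, were 10.3% of all genes on the higher side and 8.61% on the lower side.

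**Figure D1:**
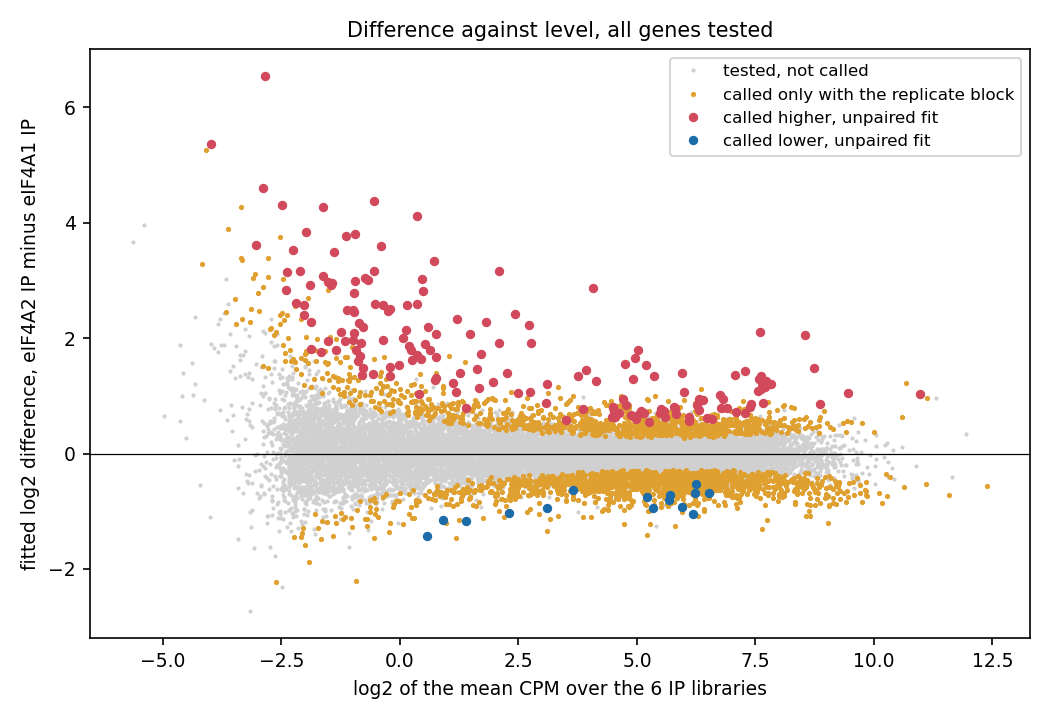
Fitted log2 difference (eIF4A2 IP minus eIF4A1 IP) against the log2 of the mean CPM over the 6 libraries for the 17474 genes tested. The 170 genes called higher without the block (red) span low and high levels and the 15 called lower (blue) lie close to the cloud; genes called only with the block (orange) border it on both sides.

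The 170 higher genes fell into 2 ranges of level. In 74 of them the eIF4A2 IP averaged at least 10 CPM, and their median log2 difference was 0.88. The other 96 were lower in level, with a median of 2.23, and 45 of them averaged under 1 CPM in the eIF4A2 IP. In 2 of the 170, all eIF4A1 IP libraries were at 0, so their fitted difference is not a measured fold.

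Against total RNA, the 170 genes were low in the eIF4A1 IP rather than high in the eIF4A2 IP. Their median log2 difference from total RNA was -1.94 in the eIF4A1 IP and -0.16 in the eIF4A2 IP, and it was -1.75 in the DDX6 IP. These comparisons share the total RNA libraries and are set side by side only. The eIF4A1 IP lay below total RNA for 151 of the 170, of which 143 passed the test. The eIF4A2 IP lay above total RNA for 70, of which 32 passed, and another 33 were called below it. Among the 74 genes of at least 10 CPM, the medians were -0.77 in the eIF4A1 IP and 0.18 in the eIF4A2 IP. The 15 lower genes had medians of 0.38 in the eIF4A1 IP and -0.55 in the eIF4A2 IP.

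The mRNAs of the paralogues come first because each antibody could touch its own. EIF4A2 mRNA (GRCh37 chromosome 3, 186500994 to 186507686) was at 434, 469 and 462 CPM in the eIF4A1 IP and at 851, 852 and 1133 CPM in the eIF4A2 IP. The groups did not overlap, and the log2 difference was 1.06 (SE 0.14, edgeR quasi-likelihood FDR 0.0048). The EIF4A2 row shares 10.4% of its exonic bases on the same strand, most of them with SNORA81, so its level is also uncertain. The SNORA81 row had a log2 difference of 2.56. On the 6 compared libraries alone neither EIF4A2 nor EIF4A1 was called (edgeR FDR 0.078 and 0.096). Total RNA averaged 391 CPM, so the eIF4A2 IP held 1.27 more on the log2 scale and the eIF4A1 IP 0.22 more. The row for EIF4A1 (chromosome 17, 7476142 to 7482324) was at only 1.87, 2.19 and 1.31 CPM in the eIF4A1 IP and 5.17, 4.18 and 10.9 CPM in the eIF4A2 IP, a difference of 1.92 (SE 0.32, edgeR FDR 0.012). That row shares 47.4% of its exonic bases with another annotated gene on the same strand, and reads that fit both are not counted for either by the usual setting, so its level is uncertain. Without eIF4A1 IP replicate 3 its edgeR FDR was 0.070.

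Among the genes with the largest differences at 10 CPM or more were several splicing and nuclear RNA-processing genes. ZC3H13, a subunit of the complex that writes m6A on mRNA, was at 44.1, 73.9 and 103 CPM against 400, 272 and 274 CPM (log2 2.10, SE 0.29, edgeR FDR 0.0049). BCLAF1, a nuclear protein rich in arginine and serine, was at 192, 193 and 289 CPM against 611, 631 and 650 CPM (log2 1.49, SE 0.19, edgeR FDR 0.0038). For BCLAF1 the eIF4A2 IP matched the total RNA mean of 628 CPM and the eIF4A1 IP was the group that stood below it. For ZC3H13 the eIF4A2 IP stood above total RNA (145 CPM) and the eIF4A1 IP below.

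LEO1, a subunit of the PAF1 transcription elongation complex, was at 10.2, 15.6 and 17.9 CPM in the eIF4A1 IP and 47.6, 65.5 and 37.8 CPM in the eIF4A2 IP. TFIP11, a factor that takes spliceosomes apart, was at 14.9, 15.7 and 14.1 against 36.2, 67.7 and 37.6 CPM. The fitted log2 differences were 1.79 and 1.66, both with edgeR FDR values under those of ZC3H13 (0.0042 and 0.0047). YLPM1 went from 124, 56.9 and 71.6 CPM to 260, 232 and 189 CPM (log2 1.43), and its call was lost when any library but eIF4A1 IP replicate 1 was left out (largest edgeR FDR 0.14).

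Noncoding rows stood among the same leaders. MIR17HG, the transcript that carries the miR-17-92 miRNAs, was at 9.48, 7.75 and 7.27 CPM in the eIF4A1 IP, 19.1, 16.9 and 30.8 CPM in the eIF4A2 IP and 61.3 CPM on average in total RNA. The row named HNRNPU-AS1 was at 23.5, 16.5 and 16.3 against 58.8, 45.7 and 59.1 CPM, with 133 CPM in total RNA. In both, both IPs were below total RNA, and the eIF4A1 IP by more. ANKRD19P, a pseudogene whose exonic bases all lie within another annotated gene, had a log2 difference of 1.55, and the unplaced clone-named row RP11-159D12.2 one of 2.23. Without eIF4A2 IP replicate 3, MIR17HG and ANKRD19P had log2 differences of 1.14 and 1.38 and were not called. They were also lost without eIF4A1 IP replicate 2 or 3, and ANKRD19P without eIF4A2 IP replicate 1 (largest edgeR FDR 0.088 and 0.11).

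RPL36A and KRTCAP2 led among short coding genes, and both are uncertain rows. RPL36A (chromosome X, 100645812 to 100651143) encodes a protein of the large ribosomal subunit and was at 4.21, 3.97 and 3.97 CPM in the eIF4A1 IP and 20.2, 21.5 and 47.6 CPM in the eIF4A2 IP, a log2 difference of 2.88 (SE 0.33, edgeR FDR 0.0030). It shares 8.4% of its exonic bases with the readthrough gene RPL36A-HNRNPH2. KRTCAP2, a subunit of the oligosaccharyltransferase, was at 3.12, 3.14 and 2.26 against 7.82, 7.88 and 16.4 CPM and shares 18.5%. The largest value in each was that of eIF4A2 IP replicate 3.

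Such sharing was common among the called genes. Of the 93 protein-coding genes called higher that could be placed on the annotation, 38 (40.9%) shared exonic bases with another gene on the same strand and 19 (20.4%) shared at least 25% of them. Over all 13677 coding genes tested the shares were 18% and 3.98%. Of the 13 coding genes called lower, 3 shared bases. The part of this overlap in the higher calls was not tested.

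**Figure D2:**
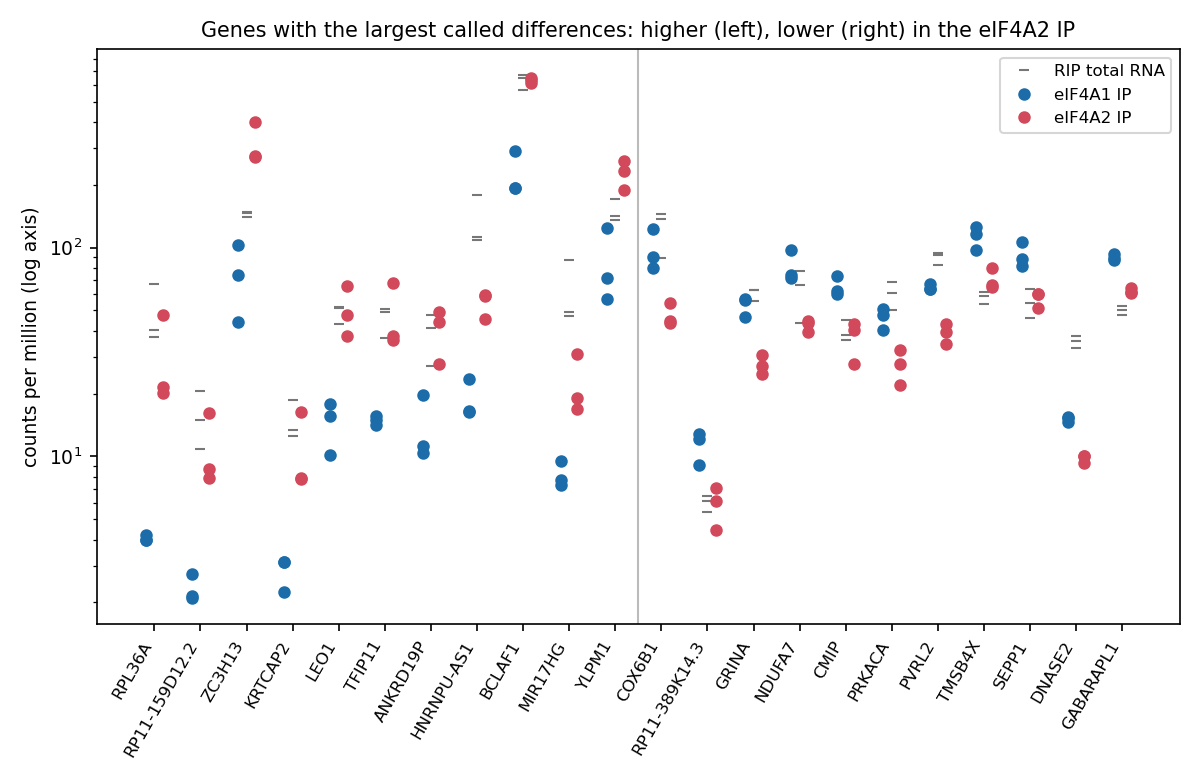
CPM in each library (log axis) of 11 genes among those with the largest called difference upward and 11 with the largest downward at 10 CPM or more, with eIF4A1 IP (blue), eIF4A2 IP (red) and RIP total RNA (grey bars), 3 libraries each. The genes were chosen to have no overlap between the blue and red points. For most genes on the left the blue points lie below the grey bars.

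The lower genes changed by less. COX6B1, a subunit of cytochrome c oxidase, was at 80.2, 123 and 90.4 CPM in the eIF4A1 IP and 43.6, 54.1 and 44.8 CPM in the eIF4A2 IP, with a log2 difference of -1.04 (SE 0.23, edgeR FDR 0.049). GRINA, a membrane protein gene, had the smallest FDR of this set, at 46.4, 55.9 and 56.7 against 27.1, 30.7 and 24.95 CPM (log2 -0.94, SE 0.13, edgeR FDR 0.0048). NDUFA7, a subunit of complex I, had a log2 difference of -0.93 and shares 32.5% of its exonic bases with a neighbour. GRINA kept its call whichever library was left out. COX6B1 kept it only without eIF4A1 IP replicate 1, and NDUFA7 with none of the 6 left out (largest edgeR FDR 0.25 for each).

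The other lower genes of 10 CPM or more had log2 differences of -0.95 to -0.53. They were CMIP, PRKACA (the catalytic subunit of protein kinase A), PVRL2 (nectin-2), TMSB4X (an actin-binding thymosin), SEPP1 (selenoprotein P), DNASE2 (a lysosomal nuclease), GABARAPL1 (an autophagy protein) and the clone-named row RP11-389K14.3. PVRL2 kept its call with 3 of 6 libraries left out, and the others with 1 or 2 of 6. DNASE2 was at 15.4, 15.5 and 14.6 CPM against 10.03, 9.27 and 10.05 CPM, with little spread in either group, and was below its total RNA mean of 35.5 CPM in both IPs. Without eIF4A2 IP replicate 3 or without eIF4A1 IP replicate 2, 1 gene in all was called lower. The 4 called genes of lower level were REEP6 (log2 -1.42), RP11-855A2.5 (-1.17), SNCB (-1.16) and the readthrough gene IQCJ-SCHIP1 (-1.02), and are named outside the rule.

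Purine motifs were searched in the stretch of mRNA just upstream of the start codon, and the last 30 bases of the leader are shown for the 4 RS-domain genes with the smallest FDR and for the 4 downward genes COX6B1, CMIP, PRKACA and PVRL2. GRINA and NDUFA7, with larger differences than the last 3, are not shown: GRINA held 1 tetramer in the last 50 bases of its leader, and the leader of NDUFA7 is 17 nt long. The stretches come from GENCODE transcripts on GRCh37, mRNA strand, 5′ to 3′, and capitals mark bases within any of the tetramers searched, on the mRNA strand only and overlapping matches included. The tetramers were AAGA with its shifts AGAA and then GAAA, the pair GAGA with its shift AGAG, and also GGAA, the run AAAA, and lastly GAAG.
BCLAF1, higher: tgatcctgcatAAAAccaagGAGAAAAGAA
LUC7L3, higher: tggtgGGAAcagccgcccGAAGGAAGcacc
ZC3H13, higher: cGAAGggagcttggggaGGAAtagtacaaa
RBM25, higher: tttcctcagcggcggactgctgcagtAAGA
COX6B1, lower: gaatccggggtgcctttaggattcagcacc
CMIP, lower: ccgcccccagccccctcccccggcgcggcc
PRKACA, lower: ccgggaccggccccggccgccgccgccgcg
PVRL2, lower: ggccgggcccagtcccctcccgggccctcc
The 4 higher genes held 14, 12, 8 and 4 bases in such tetramers and the 4 lower genes 0. These examples are not the rule for their sets. In the same window the higher genes EIF4A2, RPL36A, KRTCAP2, LEO1, TFIP11 and YLPM1 held 0 such bases. The lower genes SEPP1 and GABARAPL1 held 5 each, and TMSB4X and DNASE2 held 0. A tetramer was found in this window in 38 of 78 higher genes (48.7%), 4 of 12 lower genes (33.3%) and 45% of the 12391 coding genes tested that have the window. PRKACA begins its coding sequence with atgggcaacgccgccgccgccAAGAAGggc and ZC3H13 with atgtcAAAAAttAGAAGGAAGgtcacagtg, and over the first 30 coding bases the shares were 41.3% of the higher, 61.5% of the lower and 46.8% of all genes.

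Tetramer density was also taken over whole regions. The median density of the tetramers, counted without overlap per 100 nt on the mRNA strand, was 3.91 in the coding sequence of the higher genes, 3.15 in the lower genes and 3.01 in all coding genes tested. In the leader the medians were 1.93, 1.13 and 1.68. The leader's GC content had medians of 61.5% in the higher, 71% in the lower and 67.4% in all genes. The median coding length was 1556 nt in the higher and 1053 nt in the lower genes, against 1428 nt over all. Called with the block, the higher genes had a median of 2172 nt and the lower genes 679.5 nt.

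Of the coding sequence's length, GC content and tetramer density, only length ran the same way in every replicate pair. Across 13668 genes, Spearman's rho between coding length and the log2 difference of same-numbered libraries was 0.39, 0.50 and 0.14 in replicates 1, 2 and 3. The genes share their libraries and are not independent, so these are descriptions with no test. With the genes cut into 5 equal bins by coding length, the median log2 difference of the shortest bin was -0.24, -0.33 and -0.27, and that of the longest bin 0.15, 0.25 and -0.02. With the block, 837 of the 2734 genes of the shortest bin were called lower (30.6%) and 57 higher, and of the longest bin 58 were called lower (2.12%) and 344 higher.

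Purine content and GC content turned round in replicate 3. The rho of the log2 difference with tetramer density in the coding sequence was 0.40 and 0.22 in replicates 1 and 2 and -0.18 in replicate 3. For GC content of the coding sequence it was -0.37, -0.29 and 0.06. In the leader the relation with tetramer density was weak, 0.12 in replicates 1 and 2 and 0.004 in replicate 3. In the bin of genes richest in coding tetramers the median log2 difference was 0.15, 0.06 and -0.22, and in the poorest bin -0.23, -0.17 and 0.06. eIF4A2 IP replicate 3 is the library at the end of the first principal component, and its part in this turn was not tested.

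**Figure D3:**
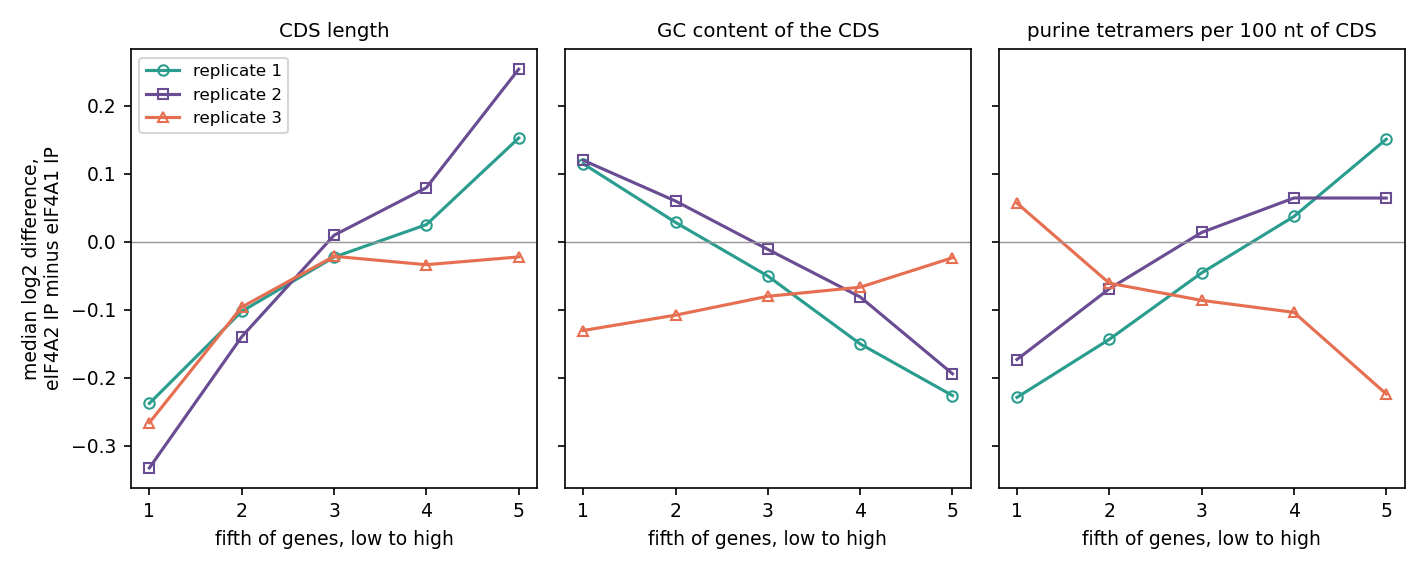
Median log2 difference (eIF4A2 IP minus eIF4A1 IP of the same replicate number) in 5 equal bins of coding genes by coding length, GC content and purine tetramer density of the coding sequence, 1 line a replicate. The shortest bin lies below 0 in all 3 replicates, while for GC and tetramer density replicate 3 slopes against replicates 1 and 2.

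Rows named for small nucleolar RNAs (snoRNAs) and the related scaRNAs were prominent among the genes called higher. Their products guide chemical modification of ribosomal and spliceosomal RNA in the nucleus, are processed from introns, and carry no poly(A) tail. Of 410 such rows 75 passed the filter on low counts, some of them only through the groups where they are high. Of these 75, 23 were higher (30.7%, against 0.973% of all genes), 0 lower, and 37 were higher with the block (49.3%, against 7.12%). Since the filter keeps rows through the group where they are high, these counts are a description only. With no filter 42 of 190 rows were called higher (median 0.84), by DESeq2 31 of 410 (median 0.89), and on the 6 compared libraries alone 7 of 62. The median log2 difference was 1.495 in the fit and 0.82, 0.60 and 1.98 in replicates 1, 2 and 3. Without eIF4A2 IP replicate 3 the fit called 13 of 81 rows with a median of 0.97, without eIF4A1 IP replicate 2 13 of 86, and without eIF4A1 IP replicate 3 10 of 86.

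The called rows were all of low level, with no library above 6.90 CPM. SNORD17, at 20.02, 20.06 and 16.4 against 21.0, 20.3 and 19.7 CPM, took the largest part of the list's summed level and was not called (log2 0.11). SNORA33 was at 0.34, 0.32 and 0.22 CPM in the eIF4A1 IP and 2.25, 2.88 and 3.90 CPM in the eIF4A2 IP (log2 3.34, SE 0.35, edgeR FDR 0.0021). SNORD46 was at 0.36, 0.22 and 0.20 against 1.28, 1.18 and 1.97 CPM, SNORD19 at 0.39, 0.32 and 0.25 against 1.78, 1.12 and 2.81 CPM, and SNORA66 at 0.32, 0.37 and 0.22 against 1.64, 1.76 and 3.97 CPM. Their log2 differences were 2.51, 2.58 and 3.02, and these 4 rows kept their calls whichever library was left out. Against total RNA the median of the 75 rows was -1.96 in the eIF4A1 IP, -1.57 in the DDX6 IP and -0.10 in the eIF4A2 IP. The eIF4A2 IP libraries thus held these rows at about the level of the total RNA libraries. All were libraries of polyadenylated RNA, so the level of mature snoRNA in the lysate was not measured. Summed, the 75 rows took 52.2, 56.3 and 40 CPM of the eIF4A1 IP libraries and 75.6, 72.7 and 109 CPM of the eIF4A2 IP libraries, without overlap. In these counts, reads of unspliced host RNA cannot be told apart from the snoRNA.

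The genes that carry the snoRNAs differed by less than the rows. For 42 of the 75 rows the annotation places the row within a host gene that was also tested, 37 hosts in all. The median log2 difference was 1.65 for the rows and 0.02 for the hosts, and 38 of the 42 rows had a larger difference than their host. Some of these rows passed the low-count filter only through the groups where they are high, so this is a description only. With no filter the median of 190 rows, placed or not, was 0.84. The 14 called rows with a host sit in 13 hosts, of which 0 were called without the block (edgeR quasi-likelihood test), and 7 were lower and 3 higher with it, and the median of those hosts was -0.55. SNORD83A, within an intron of RPL3, had a log2 difference of 3.81 while RPL3 had -0.58 (edgeR FDR with the block 0.012). SNORD14A, within an intron of RPS13, had 3.61 and RPS13 -0.61 (edgeR FDR with the block 0.019). SNORD99, within an intron of SNHG12, had 2.46 and SNHG12 0.93 (edgeR FDR with the block 0.012).

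**Figure D4:**
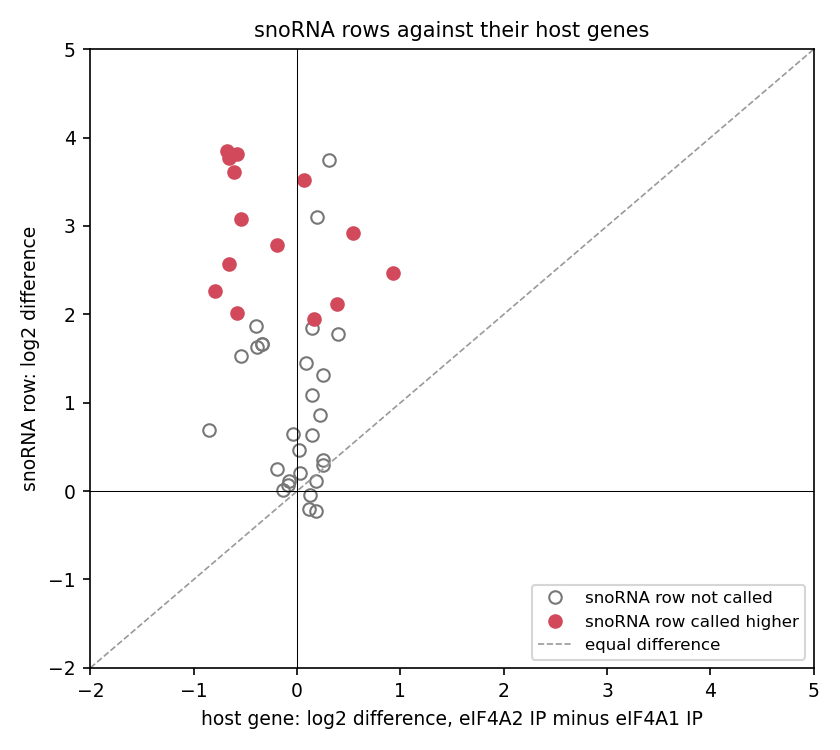
Fitted log2 difference (eIF4A2 IP minus eIF4A1 IP) of 42 snoRNA and scaRNA rows against that of the host gene they lie within. The 14 called rows (red) stand between 1.95 and 3.85 while their hosts lie between -0.79 and 0.93. Of the 42 rows, 38 lie above the dashed line of equal difference. Some rows passed the low-count filter only through the groups where they are high.

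Some genes of SR proteins and their partners were higher in the eIF4A2 IP. These proteins carry stretches rich in arginine and serine and act in choosing splice sites. Of 56 tested, 9 were higher (16.1%, against 0.973% of all genes) and 0 lower without the block. With the block 18 were higher (32.1%, against 7.12%) and 3 lower (5.36%, against 8.7%). Beside BCLAF1 and ZC3H13 the calls without the block included RBM25 and LUC7L3, which work with the U1 snRNP. The others were the SR protein kinases CLK1 and CLK4, the cyclins CCNL1 and CCNL2, and the spliceosome factor CWC25. RBM25 was at 102, 112 and 121 CPM in the eIF4A1 IP and 287, 308 and 220 CPM in the eIF4A2 IP (log2 1.28, SE 0.18, edgeR FDR 0.0048). LUC7L3 was at 111, 155 and 145 against 330, 319 and 296 CPM (log2 1.20, SE 0.16, edgeR FDR 0.0045). CLK1 was at 59.5, 53.6 and 49.97 against 89.97, 95.1 and 129.6 CPM. None of the 9 overlapped between the groups, which holds for all 185 genes called without the block.

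The group as a whole was less even. The median log2 difference of the 56 genes was 0.30 in the fit and 0.58, 0.34 and -0.005 in replicates 1, 2 and 3, against -0.02 over all genes tested. Without eIF4A1 IP replicate 3 the fit called 4 of the 56, and without eIF4A1 IP replicate 2 it called 5. On the 6 compared libraries alone the unpaired fit called 4. With replicate number 2 left out, the paired fit called 2 higher. Of 73 chromatin regulators, 2 were higher without the block (2.74%, against 0.973% of all genes) and 19 with it (26.03%, against 7.12%), and 0 with the block when replicate 2 was left out. They had medians of 0.55, 0.49 and -0.28 in the 3 replicates. KMT2E, a methyltransferase homologue, was at 60.8, 76.3 and 94.7 against 144, 162 and 141 CPM (log2 0.95), with an edgeR FDR of 0.012 that rose to 0.059 without eIF4A1 IP replicate 2. EZH2, the histone methyltransferase of PRC2, was at 77.0, 76.6 and 76.3 against 112, 108 and 130 CPM (log2 0.61), and kept its call with 1 of 6 libraries left out. Coiled-coil proteins of centrosome and kinetochore, which have long coding sequences, had medians of 0.83, 0.35 and -0.60 in the replicates. None of 46 was called without the block and 6 were higher with it (13%, against 7.12% of all genes).

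Numbered zinc finger genes, of which 455 were tested, had 6 higher calls (1.32%, close to the 0.973% of all genes) and 72 higher (15.8%, against 7.12%) and 23 lower (5.05%, against 8.7%) with the block, with a median of 0.13. Without eIF4A1 IP replicate 2 or eIF4A1 IP replicate 3 the 6 calls fell to 0, and the paired calls fell to 0 with replicate number 2 left out. ZNF331 was the one with the smallest FDR, at 65.0, 54.7 and 56.7 CPM against 97.3, 91.3 and 110 CPM (log2 0.76, edgeR FDR 0.013), a call that was lost without eIF4A1 IP replicate 2 or 3 or eIF4A2 IP replicate 3. ZNF615 (log2 0.63), ZNF354B (0.85) and ZNF410 (1.80) were also higher. ZNF410 was at no more than 1.11 CPM and shares 39.1% of its exonic bases.

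Ribosomal protein mRNAs were lower in the eIF4A2 IP, and whether they were called depended on the fit. They start with a pyrimidine tract at the cap (TOP mRNAs) and have short coding sequences. Without the block, 1 of 52 large subunit genes was called (RPL36A, higher) and 0 of 33 small subunit genes. At an unadjusted p under 0.05, 1647 genes in all were higher and 1469 lower. With the block, 38 of the 52 (73.1%, against 8.7% of all genes) and 28 of the 33 (84.8%) were lower. Without the block but with no filter on low counts, 29 of 54 and 17 of 33 were called lower by edgeR, and DESeq2 called 9 of 54 and 5 of 33. Median log2 differences were -0.65 and -0.61 in the fit. They were -0.40, -0.80 and -0.69 in replicates 1, 2 and 3 for the large subunit and -0.38, -0.75 and -0.60 for the small subunit. None of the 33 small subunit genes had a fitted difference above 0. With replicate number 2 left out, the paired fit called 0 of either list lower, while the medians were -0.57 and -0.55.

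RPS19 varied between replicates in both IPs. It was at 567, 982 and 637 CPM in the eIF4A1 IP and 321, 388 and 244 CPM in the eIF4A2 IP, with replicate 2 the highest of both. The log2 difference was -1.20 without the block (edgeR FDR 0.060) and -1.19 with it (edgeR FDR 0.00084). RPS15 was at 263, 440 and 146 against 119, 142 and 80.8 CPM (-1.31 without the block, edgeR FDR 0.16, and -1.21 with it, edgeR FDR 0.00084). Both IPs held RPS15 below its total RNA mean of 857 CPM. Summed over the small subunit, the 33 genes took 22430, 34440 and 23400 CPM of the eIF4A1 IP and 16010, 19880 and 15600 CPM of the eIF4A2 IP, and the 2 groups of sums did not overlap.

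The other TOP mRNAs, which encode elongation factors and the like, had a smaller median of -0.18. With the block 6 of 17 were lower (35.3%, against 8.7% of all genes). EEF1A1 was at 5553, 6942 and 6692 against 4396, 3905 and 4662 CPM, a log2 difference of -0.57 (edgeR FDR 0.18, with the block 0.047).

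Nuclear-encoded subunits of the respiratory chain followed the ribosomal proteins. Of 78, 2 were lower without the block (COX6B1 and NDUFA7) and 45 with it (57.7%, against 8.7% of all genes). The median was -0.49 in the fit and -0.34, -0.66 and -0.36 in the replicates. Without eIF4A1 IP replicate 2 the median was -0.26. Mitochondrial ribosomal proteins had a median of -0.30, or -0.098 without eIF4A1 IP replicate 2, with 23 of 75 lower with the block (30.7%, against 8.7% of all genes). The 1 call in that list without the block was upward: MRPL38, at 1.03, 0.82 and 0.72 against 4.86, 4.30 and 13.8 CPM (log2 3.17, SE 0.39, edgeR FDR 0.0034), shares 41.1% of its exonic bases with another gene. Proteasome subunits had a median of -0.12 and no calls without the block. With it 3 of 35 were higher (8.57%) and 4 lower (11.4%), close to the 7.12% and 8.7% of all genes. None of the 8 mitochondrially encoded rows tested was called, and together they summed to at most 1.845 CPM in these 6 libraries. None of 25 histone genes was called by either fit. With replicate number 2 left out, the paired fit called 0 respiratory chain genes, against 45 with all 3.

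**Figure D5:**
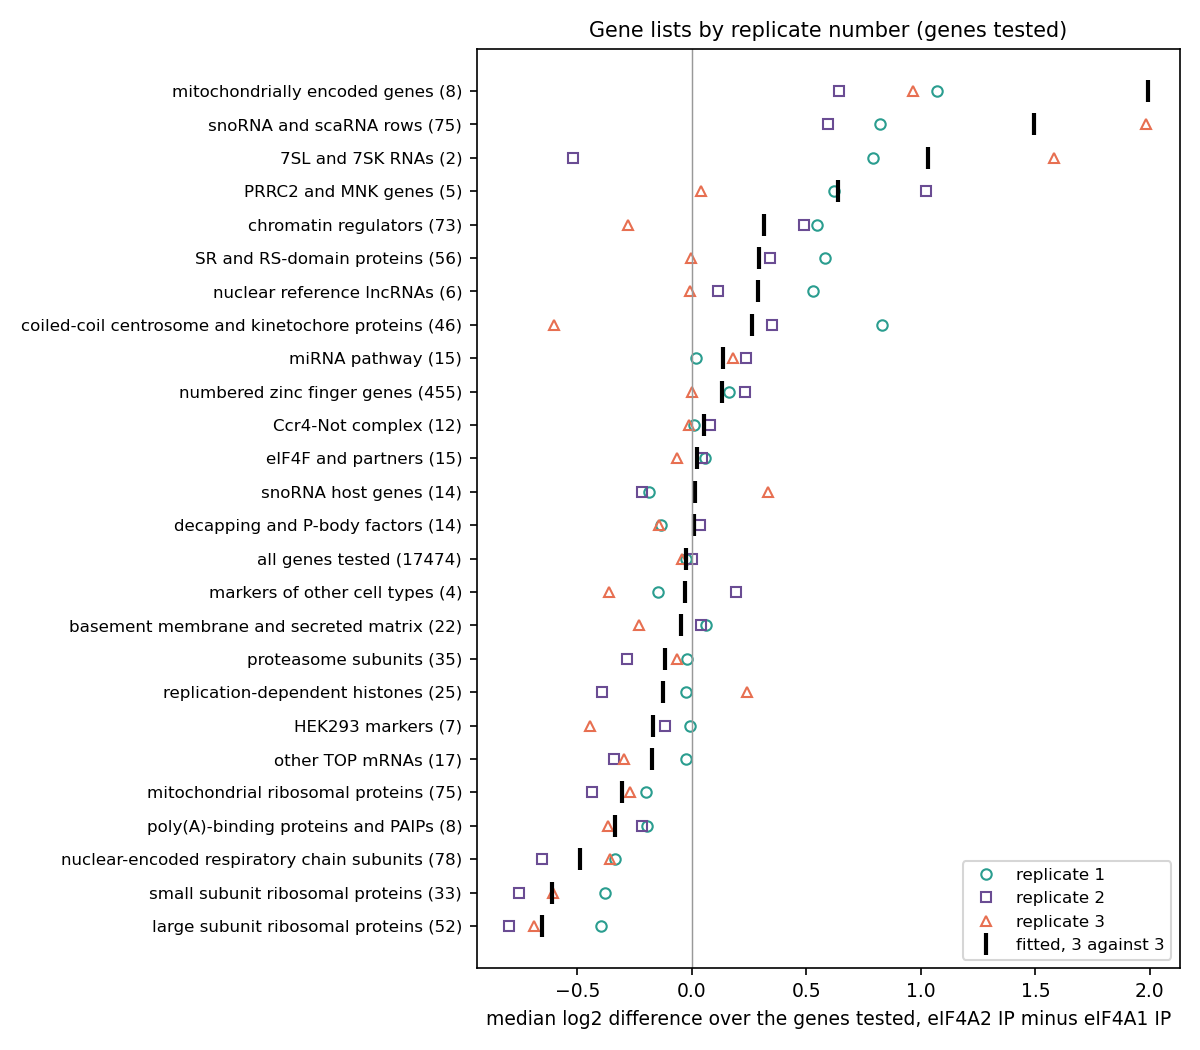
Median log2 difference (eIF4A2 IP minus eIF4A1 IP) over the tested genes of 25 lists and of all genes, in each replicate number (symbols) and in the fit (black bars). Ribosomal protein and respiratory chain lists lie below 0 in all 3 replicates, snoRNA rows above 0 in all 3, and replicate 3 lies on the other side of 0 from replicates 1 and 2 for chromatin and coiled-coil genes; for rows of very few counts, such as the mitochondrial ones, the replicate values are drawn toward 0 by a prior count of 2.

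Among the partners of eIF4A, the scaffold EIF4G1 split by replicate. It was at 1994, 1302 and 1262 CPM in the eIF4A1 IP and 4019, 3516 and 1325 CPM in the eIF4A2 IP. Replicates 1 and 2 differed and replicate 3 did not, and the log2 difference of 0.96 (SE 0.34) had an edgeR FDR of 0.19, or 0.024 with the block. EIF4EBP1, the repressor that keeps eIF4E from eIF4G, was at 37.1, 82.9 and 41.9 against 21.7, 33.9 and 14.1 CPM (log2 -1.22, edgeR FDR 0.14, with the block 0.0013). Of the 15 genes of eIF4F and its partners only EIF4A1 and EIF4A2 were called without the block (13.3%, against 0.973% of all genes). With the block 3 were higher (20%, against 7.12%) and 2 lower (13.3%, against 8.7%). EIF4G1 was not picked by the rule for named genes and was chosen after its values were seen.

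The PRRC2 genes, large proteins linked to translation of upstream open reading frames and stress granules, split by replicate in the same way. PRRC2C was at 612, 1079 and 1244 CPM in the eIF4A1 IP and 2874, 2716 and 1279 CPM in the eIF4A2 IP (log2 1.23, SE 0.31, edgeR FDR 0.086, with the block 0.023). PRRC2A was at 2117, 1582 and 1460 against 5348, 3471 and 1297 CPM (log2 0.97, edgeR FDR 0.23, with the block 0.052). For PRRC2A, eIF4A2 IP replicate 3 was below every eIF4A1 IP library. Over the 5 PRRC2 and MNK kinase genes, none was called without the block and 2 were higher with it (40%, against 7.12% of all genes).

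The genes of the Ccr4-Not complex, to which eIF4A2 has been linked, differed little between the IPs. None of 12 was called without the block, and the median log2 difference was 0.05. CNOT1, the scaffold, was at 338, 269 and 380 CPM in the eIF4A1 IP and 440, 414 and 583 CPM in the eIF4A2 IP (log2 0.54, SE 0.18, edgeR FDR 0.17, with the block 0.017), and CNOT3 had -0.37 with overlapping groups. DDX6, the helicase partner of that complex, was at 251, 249 and 296 against 219, 218 and 207 CPM, a log2 difference of -0.31 that neither fit called although the groups did not overlap.

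Of 15 genes of the miRNA pathway none was called without the block and 2 were higher with it (13.3%, against 7.12% of all genes). DGCR8, the partner of Drosha, was at 149, 129 and 110 against 181, 184 and 208 CPM (log2 0.56, edgeR FDR 0.060, with the block 0.0084), and DICER1 had 0.42 (with the block, edgeR FDR 0.032). Of 14 decapping and P-body genes 1 was lower with the block only (7.14%, against 8.7% of all genes). EIF4ENIF1, the eIF4E transporter, was higher, at 30.8, 35.5 and 36.1 against 42.4, 58.8 and 64.7 CPM (log2 0.70, edgeR FDR 0.044). It kept that call with 1 of 6 libraries left out. This 1 call is 7.14% of the list, against 0.973% of all genes. Of 8 poly(A)-binding protein and PAIP genes PABPC1L was higher (log2 1.30, edgeR FDR 0.044, kept with 2 of 6 libraries left out). That is 12.5% of the list, against 0.973% of all genes. The list's median was -0.33, and 2 of its genes were lower with the block only (25%, against 8.7% of all genes).

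Of other transcripts known to stay in the nucleus, MALAT1 was at 19.9, 14.5 and 16.3 CPM against 33.2, 16.5 and 21.8 CPM, with overlapping groups. TUG1 had a log2 difference of 0.55 (edgeR FDR 0.21, with the block 0.012). None of the 6 nuclear lncRNAs was called without the block and 1 was higher with it (16.7%, against 7.12% of all genes). Of 14 snoRNA host genes none was called without the block, and with it SNHG12 was higher (log2 0.93, edgeR FDR 0.012) and SNHG5 lower (-0.54, edgeR FDR 0.0199). Each is 7.14% of that list, near the 7.12% higher and 8.7% lower of all genes. RN7SL1, the RNA of the signal recognition particle, was at 3.23, 3.97 and 1.89 against 4.06, 1.97 and 2.97 CPM, with overlapping groups, whereas total RNA averaged 80.1 CPM. The nuclear 7SK RNA, row RN7SK, was at 0.068, 0.064 and 0.025 against 0.23, 0.061 and 0.39 CPM, a log2 difference of 2.09 with overlapping groups (edgeR FDR 0.26). Neither row was called by either fit. Of 22 genes of basement membrane and secreted matrix none was called without the block, with COL18A1 at -0.64 and LAMA3 at 0.58. With the block 2 were higher (9.1%, against 7.12% of all genes) and 1 lower (4.5%, against 8.7%). None of the 7 HEK293 markers and none of the 4 tested markers of other cell types was called by either fit. CDH2 had a log2 difference of -0.27.

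With the block alone, the genes with the largest upward differences at 10 CPM or more and no overlap were PRRC2C, FLG-AS1, GOLGA8A, CBWD6 and SEC31B, between 1.02 and 1.19 on the log2 scale. GOLGA8A, a Golgi-protein gene of a duplicated family whose copies can split reads, was at 67.2, 48.3 and 38.5 against 153, 102 and 78.7 CPM. Downward they were PPDPF, EIF4EBP1, RPS15, TMSB10 and RPS19, between -1.36 and -1.19. TMSB10, a thymosin like the called TMSB4X, was at 252, 434 and 206 against 141, 191 and 68.7 CPM.

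The called genes also differed in how much of their RNA sat in polysomes. Polysome association was taken as the log2 ratio of polysomal to subpolysomal CPM, with 0.5 CPM added to each. It was taken in 4 gradients of HEK293 cells labelled control siRNA, less the median of all genes in that gradient. It was -1.49, -1.31, -1.42 and -1.09 at the median of the higher genes, a mean of -1.33 ± 0.18 (SD, n = 4), and -1.04 ± 0.23 for the coding genes among them. For the lower genes it was 1.40, 1.17, 0.33 and 0.99, a mean of 0.975 ± 0.46. The higher genes lay below and the lower genes above the median of all genes in each gradient. Genes called with the block lay at -0.57 ± 0.10 and 0.51 ± 0.36.

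The gradient of replicate 3 needs care. The polysomal library labelled control siRNA replicate 3 held CNOT1 at 28.3 CPM against 470 to 501 CPM in the other control polysomal libraries, and the library labelled CNOT1 siRNA replicate 3 held 631 CPM against 24.0 to 31.7 CPM. The subpolysomal libraries of replicate 3 held CNOT1 as labelled, at 256 CPM with control siRNA and 73.5 CPM with CNOT1 siRNA. By CNOT1 level, the ratio of that gradient thus sets CNOT1 siRNA polysomal RNA against control subpolysomal RNA. Without that gradient the means were -1.30 for the higher and 1.19 for the lower genes. For genes called with the block they were -0.56 and 0.67. These gradients come from cells other than those of the IPs.

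After CNOT1 siRNA the higher genes had a median log2 change of -0.34 in input RNA and the lower genes -0.23, against -0.02 over all genes tested. After siRNA to TNRC6A and TNRC6B, the scaffolds of miRNA silencing, the medians were -0.15, 0.11 and -0.03. These are descriptions of the sets, with no test.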

How the data were processed

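RIP-Seq counts were analysed from 12 libraries of HEK293 cells (RIP total RNA, eIF4A1 IP, eIF4A2 IP and DDX6 IP, 3 each), with polysome gradient, input and siRNA libraries for side readouts. The authors deposited raw counts per gene symbol (55765 symbols a library), and the submitters' processing notes name bcl2fastq 2.0, TopHat2, HTSeq and hg19. The strand option and annotation release are not given in the sources used here. The authors' table of comparisons (fold changes, p-values and FDR of each IP) was not used. The deposited tables of each library held no row for unassigned reads. Totals ran from 26883978 to 46018900 counts in the 6 compared libraries. No 2 replicates differed by less than sampling noise (chi-square per degree of freedom 35.6 to 110).

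Genes were filtered with filterByExpr, scaled by TMM and tested with edgeR 4.0.16 in R 4.3.3 (quasi-likelihood, Benjamini-Hochberg FDR below 0.05 over 17474 genes, with no block). CPM values are TMM-scaled. Replicate numbers come from the titles. The description of the library titled RIP total RNA replicate 3 gives it as replicate 2, and the title's number was used in the block. Deviations from group means correlated at 0.26, 0.52 and 0.23 for same-numbered eIF4A1 and eIF4A2 IP libraries and at -0.39 to 0.12 for the others. Within a group the deviations cancel out for each gene. High values for same-numbered libraries thus force low ones for the others, which are no separate support. From the same-numbered values the numbers were taken to pair the libraries, and blocked values are printed where they change a call. Alternatives were DESeq2 1.42.0, other scaling, filter and library sets, and each library left out. The fits were tested on simulated counts.

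Symbols were placed with GENCODE 44 on GRCh37 (33177 by current symbol, 1830 by an older one from RefSeq, 20347 not placed). The members, gene lists and tests were chosen with earlier results of these data known. Genes named are the 12 largest called differences each way at a mean of at least 10 CPM without overlap (11 downward qualified), up to 4 called genes of smallest FDR a list or else the 2 largest differences, 5 each way called only with the block, and EIF4A1, EIF4A2, DDX6 and CNOT1. COX6B1 and others on this list are named for size, and further called SR genes were added after their values were seen, as were NEFM and the snoRNA rows with their hosts. A few genes that the rule picks are not reported here.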

Additional observations from a re-analysis of the deposited data

How the results depend on the processing

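The number of genes called moved with the settings far more than the differences did. The unpaired counts were 170 higher and 15 lower. The replicate block gave 1245 and 1521, DESeq2 507 and 151, no filter on low counts 459 and 538, and leaving out the total RNA libraries 109 and 4. The 6 compared libraries alone gave 24 and 0 (0 lower by edgeR, against 151 by DESeq2 on all 12 libraries and 1469 at an unadjusted p under 0.05 in the 12-library fit), and with the block 174 and 123. RLE scaling gave 181 and 12. With 1 library left out, the unpaired counts ran from 42 to 189 higher and from 1 to 35 lower. The paired counts were 653 higher and 632 lower without replicate 1, 33 and 0 without replicate 2, and 1042 and 1433 without replicate 3. The 33 genes called higher there were all among the 170. Each of these paired fits left out 1 replicate number, so they held equally many libraries. The cause of their differences was not tested. Polysome association of the higher genes was -0.87 with 2 CPM added in place of 0.5, and ranged from -1.41 to -1.27 with 1 gradient left out; that of the lower genes ranged from 0.83 to 1.19. Of the genes named by the rule, RN7SL1 and COL1A1, neither called, changed sign under an alternative, and the others kept theirs. List medians near 0 also changed sign, among them those of eIF4F, Ccr4-Not, decapping, snoRNA host and nuclear lncRNA genes. The pairing by replicate number changed no called gene's side: all 185 calls remained. Without the low-count filter 163 of the 170 and 14 of the 15 remained called. Depth limits rows under about 1 CPM, and 45 of the higher genes averaged under 1 CPM in the eIF4A2 IP.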
